A study of Homo sapiens with 9 samples.

Results

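The 42 genes described here encode the vacuolar ATPase and the lysosomal and autophagy machinery around it. They were taken by name from a fixed list, with no threshold on their values, and each matched 1 of the 60671 gene rows of every table. The list was chosen with earlier results of these data known. All 42 also passed the filter on low counts, among 19812 tested genes. By role they comprise 7 subunits of the V0 sector of the pump, 8 of its V1 sector, 2 accessory subunits, 3 transcription factors of the MiT/TFE family, 5 proteins of the lysosomal membrane and of sterol export, 7 hydrolases or their activators, 5 ubiquitin-like modifiers or cargo receptors of autophagy, and 5 proteins of autophagy initiation and conjugation.

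RNA was sequenced from C28/I2, a chondrocyte line established from human cartilage by immortalisation. There were 9 libraries, 3 each of cells carrying a short hairpin RNA against carbonic anhydrase 2 (CA2 shRNA), of cells labelled Scrambled, and of cells labelled Control, and the 3 groups share the line. The labels give neither the hairpin nor the scrambled sequence, and they do not say whether Control cells were transduced, how long the cells were kept, or whether replicates were separate cultures. The p-values therefore measure the spread between these libraries, which may be technical. Replicates are called by their group and number, as in CA2 shRNA 2.

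The vacuolar ATPase is a rotary pump. Its cytosolic V1 sector hydrolyses ATP, and the turning of its stalk drives protons through the membrane-embedded V0 sector into lysosomes, endosomes and other compartments. Lysosomal hydrolases need the resulting low pH. Autophagy delivers cytoplasmic cargo to lysosomes in membranes that carry lipid-linked modifiers of the LC3 and GABARAP family, and TFEB, TFE3 and MITF are transcription factors that act on many lysosomal and autophagy genes. Carbonic anhydrase 2 hydrates carbon dioxide to bicarbonate and a proton in the cytosol; in osteoclasts it works together with the vacuolar ATPase in acid secretion, and chondrocytes depend on autophagy for the upkeep of cartilage.

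Library totals ranged from 16994368 counts (CA2 shRNA 2) to 34261244 counts (Control 3). Levels are CPM, a gene's counts as a rate of the library total, scaled by TMM factors, unless given per exon length as RPKM. Scrambled 2 and Control 3 stood apart from the other 7 libraries, with mitochondrial shares of 4.08% and 4.06%, against 5.55% to 6.87% in the others. They were also closer to each other than to the other libraries of their own groups (chi-square per gene 3.76, against 18.2 and 19.9 for Scrambled 2 and 8.31 and 14.7 for Control 3). CA2 itself had 1.4, 0.904 and 1.09 CPM in CA2 shRNA libraries, against 1.82, 1.95 and 2.06 CPM in Scrambled libraries and 2.31, 2.00 and 1.93 CPM in Control libraries. CA2 was thus low in all groups and lowest in the CA2 shRNA libraries, without overlap. Its log2 change was -0.77 ± 0.23 (SE) against Scrambled (edgeR adjusted p = 0.0276) and -0.86 ± 0.23 against Control (adjusted p = 0.0159). Leaving out CA2 shRNA 2 (0.1003), CA2 shRNA 3 (0.109), Scrambled 3 (0.103) or Scrambled 2 (0.0533) raised the first adjusted p above 0.05, as did testing without the filter (0.0544), and leaving out CA2 shRNA 3 (0.0759), CA2 shRNA 2 (0.0665) or Control 1 (0.0531) raised the second. Of 10 chondrocyte markers, SOX9 carried most of the summed level (119.8 to 121.9 CPM in CA2 shRNA, 107.8 to 112.1 CPM in Scrambled libraries and 100.6 to 116 CPM in Control libraries). Of the defining cartilage genes, COL2A1 averaged 1.63, 1.80 and 1.89 CPM in those groups, and COL9A1 had 0 counts. Of the 6 chondrocyte markers tested, SOX9, a cartilage transcription factor, rose (0.20 in both comparisons, adjusted p = 0.0364 against Scrambled and 0.0381 against Control), and COMP, a cartilage matrix protein, fell (-0.86, adjusted p = 0.0161; -0.83, adjusted p = 0.0215). The other 4 did not pass, 5 of 6 lay below zero, and the median log2 change was -0.16 against Scrambled and -0.34 against Control. Macrophage and osteoclast markers, which mark cells rich in this pump, summed to 3.68 to 4.93 CPM in CA2 shRNA, 4.39 to 5.72 CPM in Scrambled libraries and 4.22 to 5.16 CPM in Control libraries. Endothelial and epithelial markers summed to 5.12 to 5.73 CPM, 4.66 to 5.44 CPM and 4.48 to 5.41 CPM in the same order. Of the 10 macrophage and osteoclast markers, 2 averaged 1 CPM or more in CA2 shRNA, 3 in Scrambled and 2 in Control libraries. PTPRC, TYROBP, LYZ and CALCR were at or near 0. Of the 8 endothelial and epithelial markers, 2 averaged 1 CPM or more in CA2 shRNA, 1 in Scrambled and 1 in Control libraries. Of the tested markers 0 of 4 and 0 of 5 in these last lists passed. The part of any marker list in the results was not tested.

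In CA2 shRNA libraries the RNA of ATP6V0E1, a small membrane subunit of the pump, fell to 0.542 times its Scrambled level, and that of MAP1LC3B, an autophagosome modifier, to 0.697 times. TFEB, a regulator of lysosomal genes, rose to 1.61 times, LAMP2 of the lysosomal membrane to 1.33 times and ATP6V1B2 of the V1 sector to 1.31 times. None of the hydrolase and autophagy initiation genes among the 42 passed. Against Scrambled, 10 of the 42 genes rose in CA2 shRNA libraries, 3 fell and 29 did not pass the threshold, an adjusted p of 0.05 in edgeR's quasi-likelihood test. Over all tested genes 16.9% passed in this comparison, 8.02% upward and 8.88% downward. Against Control, 8 rose, 4 fell and 30 did not pass, where 14.7% of all tested genes passed, 6.41% upward and 8.26% downward. The median log2 change of the 42 genes was 0.10 against Scrambled and 0.07 against Control, beside -0.03 and -0.0048 for all tested genes. Of the 42 genes 40 averaged 10 CPM or more, whereas tested genes reach below 1 CPM. Shares over all tested genes were not matched for level. Passing upward in both comparisons were ATP6V1B2, ATP6V1F, ATP6V1G1, TFEB, MITF, LAMP2, NPC1 and SQSTM1. Passing downward in both were ATP6V0A2, ATP6V0E1 and MAP1LC3B. Both comparisons share the CA2 shRNA libraries, and 5.49% of all tested genes rose and 6.98% fell in both. The CA2 shRNA libraries were all above all Scrambled libraries for 14 genes and all below for 7, where 32.3% of all tested genes did not overlap in either direction. Against Control these numbers were 16 and 5, beside 33%. At an unadjusted p under 0.05 there were 21 of the 42 against Scrambled, beside 29% of all tested genes, and 16 against Control, beside 26.4%. The number rising against Scrambled became 6 without CA2 shRNA 2, the shallowest library. Over all genes it went from 1589 to 906. The number rising against Control became 4 without Control 1, Control 2 or CA2 shRNA 2. Over all genes it went from 1269 to 896, 686 and 663 in that order. The number falling against Control became 2 without Control 2, CA2 shRNA 1 or CA2 shRNA 3. Over all genes it went from 1637 to 1276, 1063 and 1108. With Scrambled 2 and Control 3 both left out, 13 of the 42 rose and 2 fell against Scrambled, and 10 rose and 2 fell against Control. Over all genes 2407 rose and 1882 fell against Scrambled in that setting, and 1752 rose and 1461 fell against Control.

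**Figure D1:**
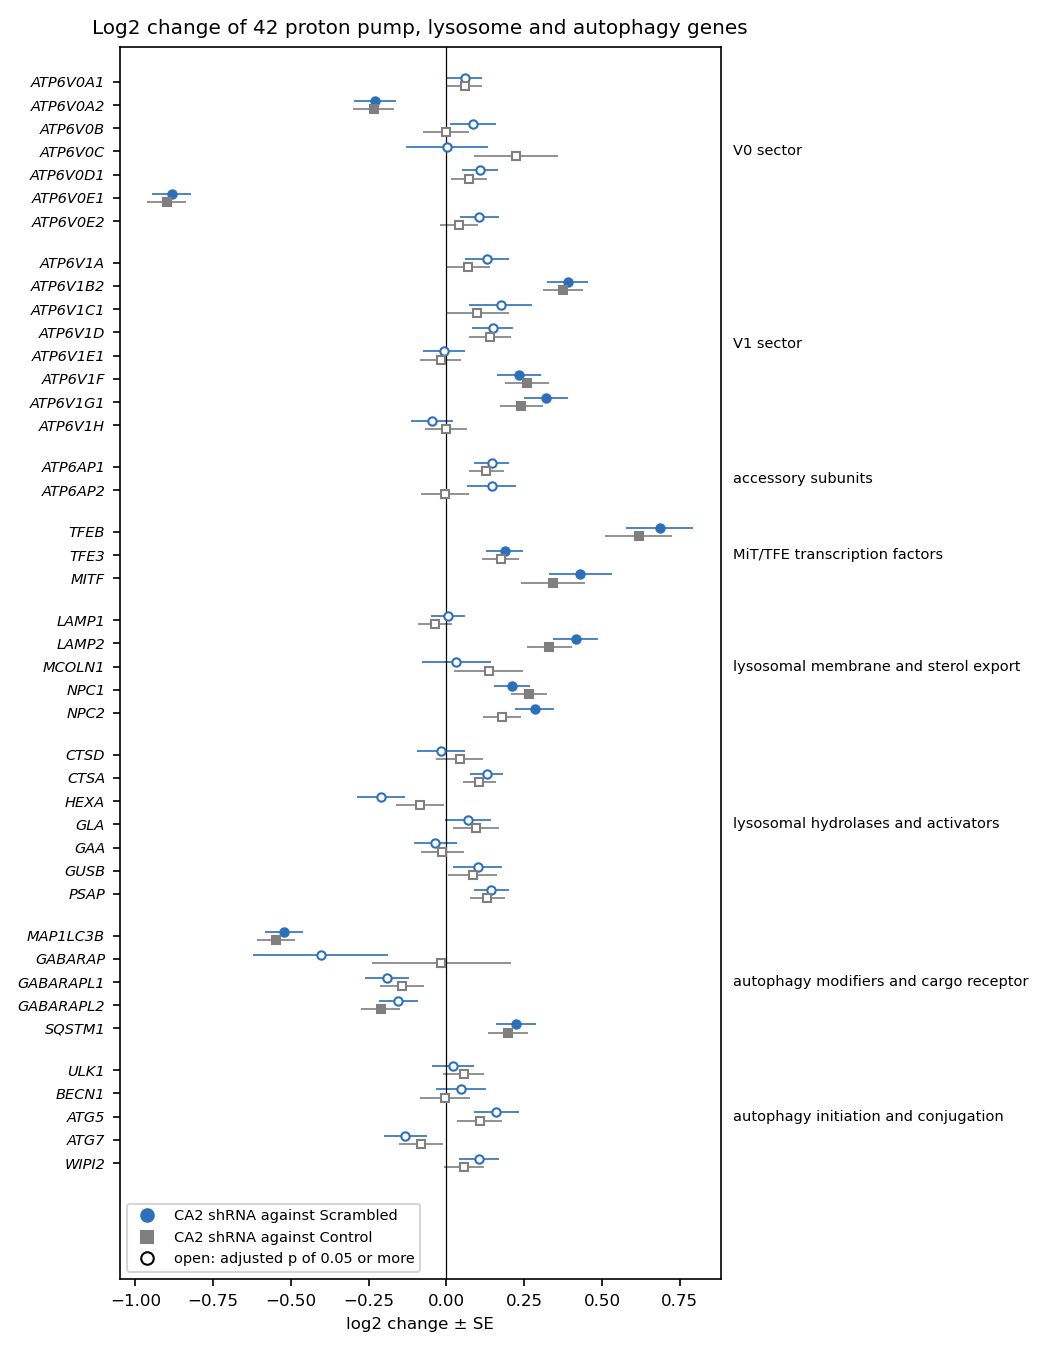
Log2 change with its standard error of each of the 42 genes, grouped by role, for CA2 shRNA against Scrambled (circles) and against Control (squares); filled symbols passed an adjusted p of 0.05. ATP6V0E1 at -0.88 and -0.90 and MAP1LC3B at -0.52 and -0.55 lie farthest to the left, and TFEB at 0.69 and 0.62 farthest to the right.

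Within the V0 sector, 2 of 7 subunits fell in both comparisons and none rose. ATP6V0E1 (chr5:172983771-173035445, plus strand, GRCh38) encodes the small membrane subunit e1 and changed most among the 42 genes. It had 44.0, 44.3 and 42.7 CPM in CA2 shRNA libraries, against 80.6, 84.3 and 76.7 CPM in Scrambled libraries and 77.4, 81.8 and 85.0 CPM in Control libraries. Every CA2 shRNA library lay far below every library of the other groups. In a bulk sample, fewer cells carrying an RNA and less of it per cell cannot be told apart. The log2 change was -0.88 ± 0.063 against Scrambled (adjusted p = 2.71e-08) and -0.90 ± 0.063 against Control (adjusted p = 2.22e-08), and the call held in all 17 alternatives of the fit. Its processed pseudogenes each averaged at most 0.109 CPM. ATP6V0E2, which encodes the alternative subunit e2, had 76.0, 84.0 and 77.0 CPM in CA2 shRNA libraries, against 76.1, 74.6 and 69.4 CPM in Scrambled libraries and 74.6, 76.4 and 79.3 CPM in Control libraries. The groups overlapped, and ATP6V0E2 did not pass (log2 change 0.11, adjusted p = 0.283 against Scrambled; 0.04, adjusted p = 0.756 against Control). Per exon length, ATP6V0E1 made up 69.9% ± 0.980 (SD, n = 3) of the summed RPKM of both e subunit genes in CA2 shRNA libraries, against 82.2% ± 0.496 in Scrambled and 81.6% ± 0.278 in Control libraries. In all, 19.7% of the exon bases of ATP6V0E2 are shared with genes on the other strand. The ATP6V0E2 antisense gene, which shares 12.8% of them, was at -0.46 against Scrambled (adjusted p = 0.00602). Without a stated strand setting, reads of the pair cannot be told apart.

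ATP6V0A2 (chr12:123712353-123761755, plus strand) encodes an isoform of the large membrane subunit a that is known from the Golgi and endosomes. It had 33.5, 33.1 and 33.0 CPM in CA2 shRNA libraries, against 38.5, 39.6 and 38.5 CPM in Scrambled libraries and 37.9, 41.2 and 38.0 CPM in Control libraries. The groups did not overlap, but the difference was small, with log2 changes of -0.23 ± 0.066 against Scrambled (adjusted p = 0.0228) and -0.23 ± 0.066 against Control (adjusted p = 0.0226). It did not pass against Scrambled when CA2 shRNA 1 (0.102), CA2 shRNA 3 (0.118), Scrambled 2 (0.0771) or Scrambled 3 (0.0667) was left out, nor against Control without Control 2 (0.1003), CA2 shRNA 1 (0.106) or CA2 shRNA 3 (0.121). The most abundant other V0 gene by CPM, ATP6V0D1 of the d subunit that joins the sectors, had 132, 142 and 124 CPM in CA2 shRNA libraries, against 126, 123 and 119 CPM in Scrambled libraries and 122, 126 and 129 CPM in Control libraries, with overlapping groups. ATP6V0A1, another isoform of subunit a, averaged 89.7 ± 4.35 CPM in CA2 shRNA, 86.0 ± 1.17 CPM in Scrambled libraries and 86.0 ± 0.358 CPM in Control libraries and did not pass. ATP6V0B and ATP6V0C, which encode proteolipids of the proton-carrying ring, were at log2 changes of 0.08 and 0.00 against Scrambled and did not pass either. For ATP6V0C, at 4.49 to 6.23 CPM, 76.3% of the exon bases are shared with genes on the other strand.

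Of the 8 V1 subunits, 3 rose in both comparisons and none fell. ATP6V1B2 (chr8:20197381-20226819, plus strand), the nucleotide-binding subunit B of most tissues, had 97.8, 113 and 100.1 CPM in CA2 shRNA libraries, against 77.8, 81.7 and 77.6 CPM in Scrambled libraries and 78.0, 84.0 and 77.9 CPM in Control libraries. The groups did not overlap, and CA2 shRNA 2 was the highest library. This gave a log2 change of 0.39 ± 0.064 against Scrambled (adjusted p = 0.00034) and 0.37 ± 0.064 against Control (adjusted p = 0.000514), and both calls held in every alternative. ATP6V1G1 (chr9:114587769-114598879, plus strand), a subunit of the peripheral stalks, had 85.6, 86.9 and 88.6 CPM in CA2 shRNA libraries, against 68.2, 75.5 and 65.5 CPM in Scrambled libraries and 66.8, 77.3 and 76.9 CPM in Control libraries. CA2 shRNA libraries were close together and above the others. Its log2 change was 0.32 ± 0.070 against Scrambled (adjusted p = 0.00369) and 0.24 ± 0.070 against Control (adjusted p = 0.0258), and the call against Control was lost without Control 1 (0.132), Control 2 (0.0542), CA2 shRNA 2 (0.0926) or CA2 shRNA 3 (0.0510).

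ATP6V1F (chr7:128862856-128865847, plus strand), a subunit of the central stalk, had 100.1, 120.5 and 102 CPM in CA2 shRNA libraries, against 91.3, 93.6 and 88.8 CPM in Scrambled libraries and 85.1, 87.8 and 96.0 CPM in Control libraries. The groups did not overlap, and CA2 shRNA 2 stood above the other CA2 shRNA libraries. The log2 change was 0.23 ± 0.071 against Scrambled (adjusted p = 0.0304) and 0.26 ± 0.071 against Control (adjusted p = 0.0194). The call against Scrambled was lost without Control 2 (0.0607), Scrambled 1 (0.0520), Scrambled 3 (0.1298) or CA2 shRNA 2 (0.211), and against Control without Control 1 (0.0845), Control 2 (0.1095) or CA2 shRNA 2 (0.162). Of its exon bases 20.6% are shared with KCP on the other strand, which averaged 0.848 CPM. The catalytic subunit gene ATP6V1A had 114, 109 and 114 CPM in CA2 shRNA libraries, against 95.5, 112 and 100.3 CPM in Scrambled libraries and 98.3, 106 and 116 CPM in Control libraries. It overlapped both other groups and did not pass (log2 change 0.13, adjusted p = 0.234 against Scrambled), though it passed without Scrambled 2 (0.0257). ATP6V1C1, with the highest CPM of the sector, had 135, 120.3 and 133 CPM in CA2 shRNA libraries, against 95.9, 131 and 117 CPM in Scrambled libraries and 111, 120.2 and 131 CPM in Control libraries. It too overlapped and did not pass, at 0.17 against Scrambled (adjusted p = 0.290; 0.0156 without Scrambled 2). ATP6V1D was at 0.15 and 0.14 in the comparisons (adjusted p = 0.148 and 0.193; 0.0228 against Scrambled without Scrambled 2), and ATP6V1E1 and ATP6V1H lay between -0.05 and 0.00.

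Neither accessory subunit passed. ATP6AP1, which helps the pump to assemble, had 225, 242 and 216 CPM in CA2 shRNA libraries, against 212, 206 and 198 CPM in Scrambled libraries and 201, 209 and 214 CPM in Control libraries. The CA2 shRNA libraries were the highest without overlap, with log2 changes of 0.15 ± 0.056 against Scrambled (adjusted p = 0.0889; 0.0375 without CA2 shRNA 3) and 0.13 ± 0.056 against Control (adjusted p = 0.151). ATP6AP2, also known as the prorenin receptor, was at 0.15 and -0.0050.

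**Figure D2:**
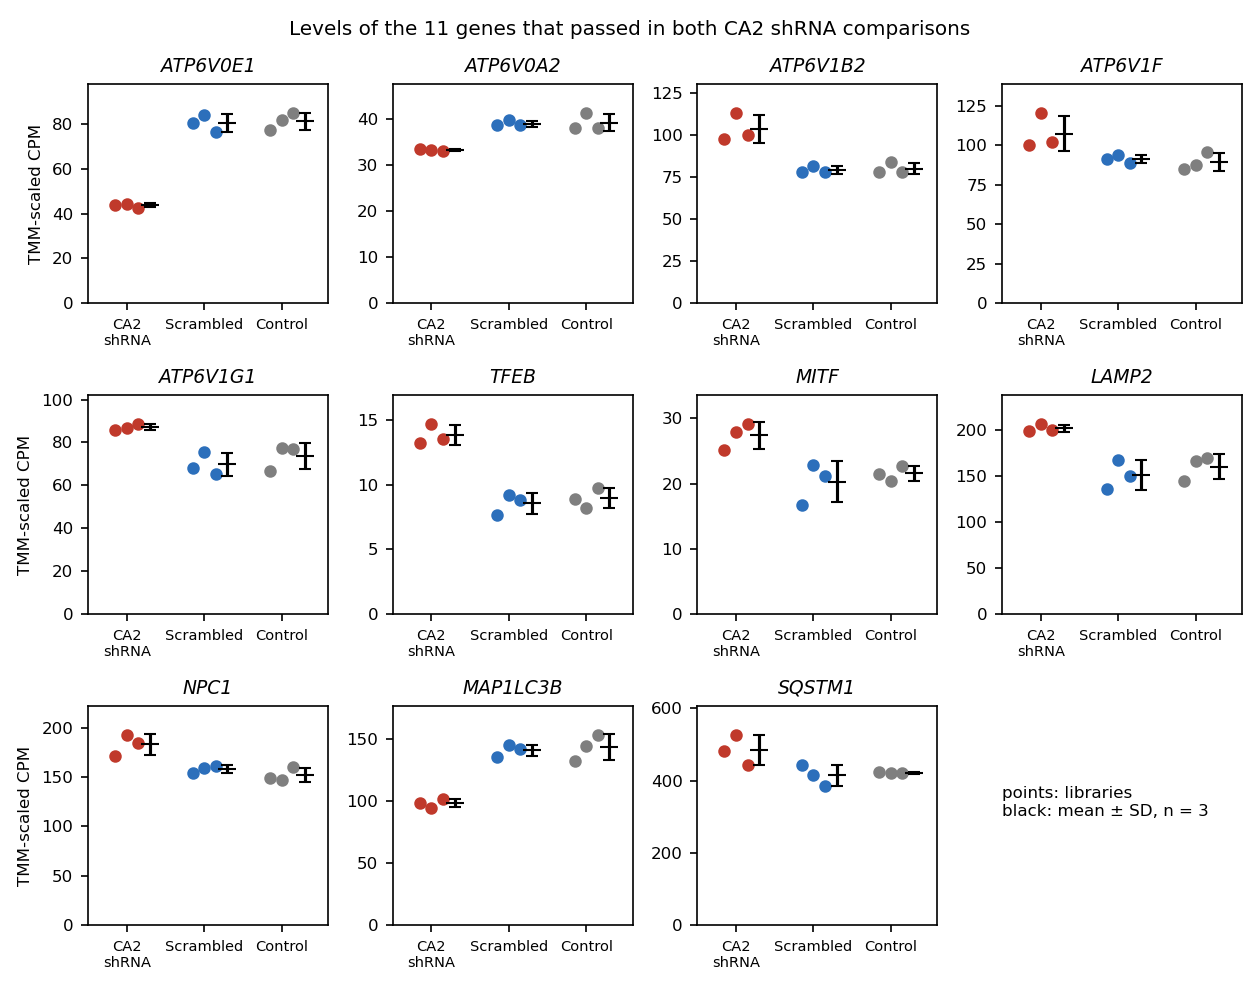
TMM-scaled CPM in every library for the 11 genes that passed in the same direction against Scrambled and against Control, with the mean ± SD of each group (n = 3). For ATP6V0E1 the CA2 shRNA libraries lie between 42.7 and 44.3 CPM and all others between 76.7 and 85.0 CPM, while for SQSTM1 the lowest CA2 shRNA library, at 445 CPM, is next to the highest Scrambled library, at 442 CPM.

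Of the MiT/TFE transcription factors, all 3 rose against Scrambled, and TFEB and MITF also against Control. TFEB (chr6:41683978-41736259, minus strand), which activates lysosomal genes when it enters the nucleus, had 13.3, 14.7 and 13.6 CPM in CA2 shRNA libraries, against 7.67, 9.21 and 8.81 CPM in Scrambled libraries and 8.93, 8.18 and 9.75 CPM in Control libraries. The CA2 shRNA libraries stood clear of both other groups. This gave a log2 change of 0.69 ± 0.11 against Scrambled (adjusted p = 0.000221) and 0.62 ± 0.11 against Control (adjusted p = 0.000577), and both calls held in every alternative. MITF (chr3:69739464-69968336, plus strand), best known from melanocytes and osteoclasts, had 25.1, 28.0 and 29.1 CPM in CA2 shRNA libraries, against 16.8, 22.9 and 21.2 CPM in Scrambled libraries and 21.5, 20.5 and 22.8 CPM in Control libraries. The groups did not overlap, and Scrambled 1 was the lowest library. MITF was at 0.43 ± 0.10 against Scrambled (adjusted p = 0.0068) and at 0.34 ± 0.10 against Control (adjusted p = 0.0298), where the call was lost without Control 1 (0.0758), Control 2 (0.152), CA2 shRNA 2 (0.125) or CA2 shRNA 3 (0.0878).

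TFE3 (chrX:49028726-49043410, minus strand), a close relative of TFEB, had 94.5, 103 and 96.7 CPM in CA2 shRNA libraries, against 92.1, 82.3 and 84.3 CPM in Scrambled libraries and 86.1, 87.6 and 87.1 CPM in Control libraries. It did not overlap, but the lowest CA2 shRNA library was near Scrambled 1. The log2 change was 0.19 ± 0.060 against Scrambled (adjusted p = 0.0403) and 0.17 ± 0.060 against Control, which did not pass (adjusted p = 0.0614). Against Scrambled the call was lost without Control 2 (0.0879), Control 3 (0.0554), Scrambled 2 (0.0595), Scrambled 3 (0.158) or CA2 shRNA 2 (0.1899), and with only the compared groups (0.0600). Against Control TFE3 passed without Scrambled 2 (0.0172) or CA2 shRNA 1 (0.0422), and with DESeq2 (0.0497), library totals in place of TMM (0.0462) or a filter of at least 1 CPM in 3 libraries, the 1 CPM filter (0.0296). Per exon length, TFE3 remained the main RNA of this family, with 79.0% ± 0.685 (SD, n = 3) of the summed RPKM of TFEB, TFE3 and MITF in CA2 shRNA libraries, 82.6% ± 2.75 in Scrambled and 82.0% ± 1.02 in Control libraries. TFEB took 8.29% ± 0.110 in CA2 shRNA, 6.13% ± 0.724 in Scrambled and 6.29% ± 0.494 in Control libraries. The activity of these proteins depends largely on their phosphorylation and location, which RNA levels do not show.

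Among the lysosomal membrane and sterol export genes, 3 of 5 rose against Scrambled and 2 against Control. LAMP2 (chrX:120426148-120469365, minus strand), a heavily glycosylated lysosomal membrane protein with a splice form that takes in single proteins for degradation, had 199, 207 and 200.1 CPM in CA2 shRNA libraries, against 136, 168 and 149.9 CPM in Scrambled libraries and 145, 167 and 169.8 CPM in Control libraries. The CA2 shRNA libraries were close together and above all others. LAMP2 was at 0.42 ± 0.073 against Scrambled (adjusted p = 0.000771) and 0.33 ± 0.073 against Control (adjusted p = 0.00488), in every alternative past the threshold. LAMP1, its relative of similar function, had 272, 292 and 269.5 CPM in CA2 shRNA libraries, against 271, 284 and 275 CPM in Scrambled libraries and 270.5, 289 and 296 CPM in Control libraries. These values were interleaved, with log2 changes of 0.01 ± 0.054 and -0.04 ± 0.054 (adjusted p = 0.966 and 0.740).

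NPC1 and NPC2 hand cholesterol from the lysosomal lumen to the membrane and out. NPC1 (chr18:23506184-23586506, minus strand) had 172, 193 and 185 CPM in CA2 shRNA libraries, against 154, 159 and 161 CPM in Scrambled libraries and 149, 147 and 161 CPM in Control libraries. The groups did not overlap. This gave a log2 change of 0.21 ± 0.058 against Scrambled (adjusted p = 0.0166; 0.0525 without Scrambled 1 and 0.0941 without CA2 shRNA 2) and 0.27 ± 0.058 against Control (adjusted p = 0.00376). NPC2 (chr14:74476192-74494177, minus strand) had 54.2, 56.4 and 54.0 CPM in CA2 shRNA libraries, against 44.3, 45.4 and 45.5 CPM in Scrambled libraries and 48.1, 47.0 and 50.2 CPM in Control libraries. It did not overlap either, and Scrambled libraries lay below Control libraries. NPC2 rose against Scrambled (0.28 ± 0.061, adjusted p = 0.00343) and did not pass against Control (0.18 ± 0.061, adjusted p = 0.0600; 0.0213 without Scrambled 2). The partners that share exon bases on the other strand are RMC1 with NPC1 (6.38% of its exon bases; RMC1 was at -0.25, adjusted p = 0.0143 against Scrambled) and ISCA2 with NPC2 (3.99%; ISCA2 was at 0.37, adjusted p = 0.00938). MCOLN1, a calcium channel of the lysosome, was at 0.03 and 0.14 and did not pass.

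None of the 7 hydrolases and activators passed in either comparison, at log2 changes between -0.21 and 0.14. PSAP, the precursor of the saposins that present lipids to hydrolases, had 919.7, 939 and 886 CPM in CA2 shRNA libraries, against 859.6, 827 and 797 CPM in Scrambled libraries and 777, 861 and 868 CPM in Control libraries. CTSA, a carboxypeptidase that protects other hydrolases, had 400.2, 407 and 377 CPM in CA2 shRNA libraries, against 374, 354 and 355 CPM in Scrambled libraries and 352, 374 and 374 CPM in Control libraries. Both were highest in the CA2 shRNA libraries without overlap, yet by little: PSAP was at 0.14 ± 0.057 and 0.13 ± 0.057 (adjusted p = 0.0947 and 0.143), and CTSA at 0.13 ± 0.053 and 0.11 ± 0.053 (adjusted p = 0.1100 and 0.222). The aspartic protease gene CTSD had 69.2, 73.6 and 75.6 CPM in CA2 shRNA libraries, against 74.7, 79.9 and 66.4 CPM in Scrambled libraries and 63.9, 74.0 and 74.1 CPM in Control libraries, and was at -0.02 and 0.04. Of the exon bases of CTSD 53.3% are shared with genes on the other strand, and of those of CTSA 28.5%. HEXA, a subunit of beta-hexosaminidase, was at -0.21 ± 0.077 against Scrambled (adjusted p = 0.0736) and -0.08 ± 0.078 against Control (adjusted p = 0.562), at 24.5 to 26.6 CPM in CA2 shRNA, 28.4 to 30.8 CPM in Scrambled libraries and 25.2 to 29.2 CPM in Control libraries. GLA, GAA and GUSB, which cleave glycolipids, glycogen and glucuronides, lay between -0.04 and 0.10 in both comparisons. GUSB has expressed copies, of which GUSBP11 averaged 8.70 CPM and GUSBP1 6.08 CPM, so its reads may be split.

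Among the autophagy modifiers, MAP1LC3B fell in both comparisons. MAP1LC3B (chr16:87383953-87404779, plus strand) encodes LC3B, which is joined to lipid on growing autophagosomes. It had 98.4, 94.8 and 101 CPM in CA2 shRNA libraries, against 136, 145 and 142 CPM in Scrambled libraries and 133, 144 and 153 CPM in Control libraries. All CA2 shRNA libraries lay well below all others. The log2 change was -0.52 ± 0.061 against Scrambled (adjusted p = 8.87e-06) and -0.55 ± 0.061 against Control (adjusted p = 4.74e-06), and both calls held in every alternative. Its near-identical copy MAP1LC3B2 averaged 1.11 CPM. GABARAPL2, of the same modifier family, had 65.5, 61.9 and 61.2 CPM in CA2 shRNA libraries, against 68.1, 74.4 and 67.4 CPM in Scrambled libraries and 69.3, 74.9 and 74.2 CPM in Control libraries. It was lowest in the CA2 shRNA libraries without overlap, and fell against Control (-0.21 ± 0.063, adjusted p = 0.0309) but did not pass against Scrambled (-0.15 ± 0.063, adjusted p = 0.109). The call against Control was lost without Control 2 (0.104), Control 3 (0.108), CA2 shRNA 1 (0.0813), CA2 shRNA 2 (0.0739) or CA2 shRNA 3 (0.186).

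GABARAPL1 had 38.2, 38.9 and 36.6 CPM in CA2 shRNA libraries, against 39.9, 43.9 and 45.9 CPM in Scrambled libraries and 39.7, 42.6 and 43.0 CPM in Control libraries. It too was lowest in the CA2 shRNA libraries without overlap and did not pass, at -0.19 ± 0.071 against Scrambled (adjusted p = 0.0739; 0.0159 without Scrambled 1) and -0.14 ± 0.071 against Control (adjusted p = 0.217). GABARAP had low levels, at 1.46 to 2.40 CPM, and 48.2% of its exon bases are shared with other genes. Per exon length, MAP1LC3B held 38.5% ± 1.31 (SD, n = 3) of the summed RPKM of these 4 modifiers in CA2 shRNA libraries, against 44.4% ± 0.419 in Scrambled and 44.6% ± 0.958 in Control libraries.

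SQSTM1 (chr5:179806398-179838078, plus strand), whose product p62 ties ubiquitinated cargo to LC3 and is itself degraded by autophagy, rose in both comparisons. It had 482, 526 and 445 CPM in CA2 shRNA libraries, against 442, 416 and 385 CPM in Scrambled libraries and 425, 419.9 and 421 CPM in Control libraries. CA2 shRNA 3 was only just above Scrambled 1. The log2 change was 0.22 ± 0.064 against Scrambled (adjusted p = 0.0220) and 0.20 ± 0.064 against Control (adjusted p = 0.0464). The call against Scrambled was lost without Scrambled 3 (0.146) or CA2 shRNA 2 (0.145), and against Control without Control 1 (0.0909), Control 2 (0.182), Control 3 (0.107), Scrambled 3 (0.0501), CA2 shRNA 1 (0.0567) or CA2 shRNA 2 (0.281). MRNIP, which shares 21% of the exon bases of SQSTM1 on the other strand, averaged 29.9 CPM and was at 0.02 (adjusted p = 0.966 against Scrambled). MGAT4B shares 1.39% of them and averaged 351 CPM.

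None of the 5 initiation and conjugation genes passed. ULK1, the kinase that starts autophagosome formation, had 194, 197 and 192 CPM in CA2 shRNA libraries, against 206, 168 and 200.02 CPM in Scrambled libraries and 189, 193 and 179.6 CPM in Control libraries. WIPI2, which reads phosphatidylinositol 3-phosphate on the forming membrane, had 90.3, 101 and 85.7 CPM in CA2 shRNA libraries, against 84.1, 86.0 and 86.7 CPM in Scrambled libraries and 83.7, 88.7 and 93.0 CPM in Control libraries. BECN1, a subunit of the lipid kinase complex, had 39.8, 41.0 and 39.1 CPM in CA2 shRNA libraries, against 41.8, 33.7 and 40.5 CPM in Scrambled libraries and 42.4, 38.1 and 39.6 CPM in Control libraries. The groups overlapped for all 3 genes, whose log2 changes lay between -0.0039 and 0.10 in both comparisons. ATG5 and ATG7, which attach the modifiers to lipid, were at 0.16 and -0.13 against Scrambled (adjusted p = 0.147 and 0.227). ATG5 passed without Scrambled 2 (0.0375). VGLL4, which shares 18.1% of the exon bases of ATG7 on the other strand, was at 0.29 against Scrambled (edgeR adjusted p = 0.00805).

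Scrambled against Control gave no call among the 42 genes (0 of 42) and none among all tested genes (0%) by edgeR. At an unadjusted p under 0.05 there were 0 of the 42 and 550 of all genes (2.78%), and DESeq2 called 1 gene. The 42 log2 changes ran from -0.15 to 0.39 with a median of -0.02, and the upper end was GABARAP. The groups did not overlap for 3 of the 42 genes, namely GABARAP and ATP6V0C (higher in Scrambled) and NPC2 (lower in Scrambled), where 6.82% of all tested genes did not overlap (3.67% with Scrambled above and 3.15% below).

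Levels between genes were compared per exon length. Averaged over all 9 libraries, the highest of the 42 were PSAP at 269 RPKM, ATP6V1F at 126 RPKM, CTSA at 63.9 RPKM and SQSTM1 at 58.4 RPKM, and the median was 14.6 RPKM. The lowest were HEXA at 2.23 RPKM, ATP6V0A2 at 2.15 RPKM, TFEB at 1.85 RPKM and GABARAP at 0.959 RPKM. The gene with the largest rise on the log2 scale was thus among the lowest in level. ATP6V0E1, the gene with the largest fall, averaged 27.1 ± 0.350 RPKM in CA2 shRNA, 50.3 ± 2.5 RPKM in Scrambled and 50.5 ± 2.15 RPKM in Control libraries. RPKM divides by all annotated exons of a gene and understates genes with many rarely used exons. Genes on the other strand share 48.2% of the exon bases of GABARAP, 28.5% of CTSA and 22.4% of SQSTM1. They also share 20.6% of those of ATP6V1F and 15% of those of HEXA. Whether counts were lost there was not tested.

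**Figure D3:**
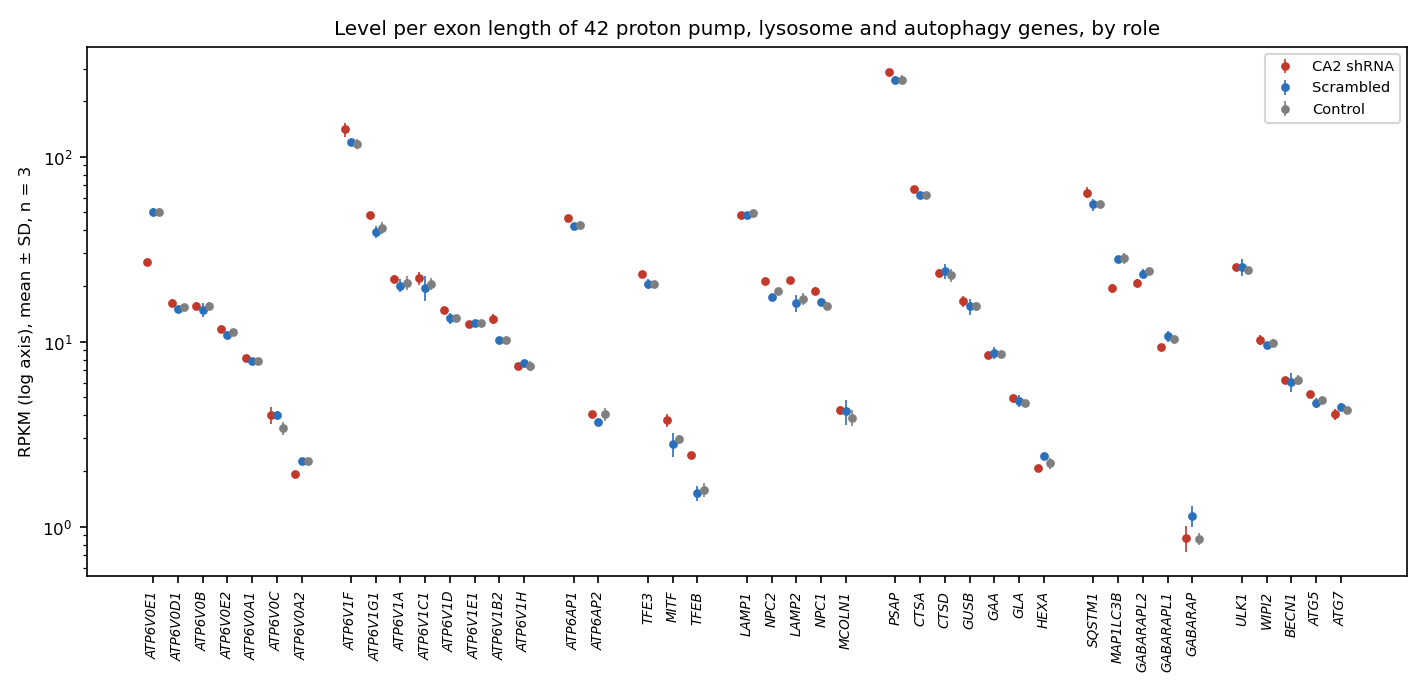
RPKM on a log axis (mean ± SD, n = 3 per group) of the 42 genes, ordered by level within each role, with CA2 shRNA left, Scrambled in the middle and Control right for each gene. PSAP at 269 RPKM and GABARAP at 0.959 RPKM mark the ends, and the groups separate most visibly for ATP6V0E1.

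The heptamers ACACCAA and CACCAAA in the 3' UTR were known from earlier results on these data to be common among falling genes, so their presence here is a description. The annotated 3' UTR strand of 41 of the 42 genes was searched, and 3 held a match, or 7.32%, beside 20.4% of the 13964 tested genes searched. They were ATP6V0E1, MAP1LC3B and WIPI2. Each match is shown with its surroundings on the transcribed strand (GENCODE 29, GRCh38), with the heptamer in capitals. It lies at chr5:173034804-173034833 in ATP6V0E1, chr16:87404121-87404150 in MAP1LC3B and chr7:5232780-5232809 in WIPI2, all on the plus strand.
ATP6V0E1: caacagaatcgCACCAAActatactttcag
MAP1LC3B: agaattctcccACACCAAgtgcatgtcagt
WIPI2: gggtttcctgtCACCAAAgagtgagctgca
The motifs overlap by 6 bases, and the search counted a gene once. Of the 3 genes with a match, 2 fell in both comparisons and WIPI2 did not pass. Of the 38 genes with neither heptamer, 10 rose and 1 fell against Scrambled, and 8 rose and 2 fell against Control. Among all 11112 searched genes with neither, 1422 rose and 757 fell against Scrambled, and 1115 rose and 703 fell against Control. Over all searched genes, 26.0% of those with a heptamer fell against Scrambled and 6.81% of those without, with median log2 changes of -0.13 and 0.04. Against Control these were 26.6% and 6.33%, with medians of -0.13 and 0.04.

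**Figure D4:**
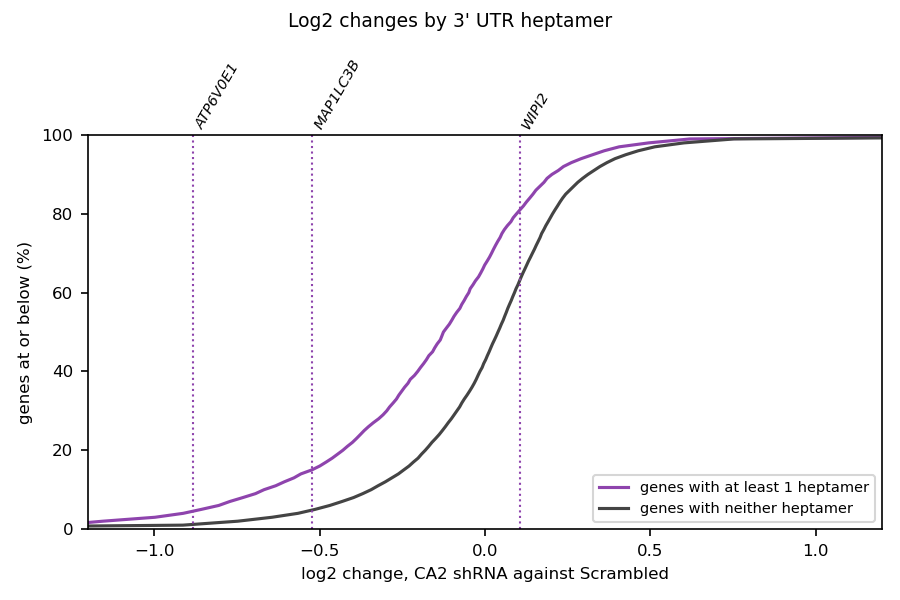
Share of all searched genes at or below each log2 change of CA2 shRNA against Scrambled, for genes with at least 1 of the 3' UTR heptamers and for genes with neither; dotted lines mark the 3 of the 42 genes that hold one. The curve of genes with a heptamer (median -0.13) lies left of the other (median 0.04), and ATP6V0E1 at -0.88 and MAP1LC3B at -0.52 lie in its lower part while WIPI2 at 0.10 does not.

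Promoters were searched because TFEB and its relatives bind E-box sequences, of which the palindrome TCACGTGA is a well-known extended form in lysosomal genes. A RefSeq promoter of 300 bases, from 250 before to 50 after the start (GRCh38.p14), was in the table for 34 of the 42 genes. Not searched for lack of a promoter were ATP6V0E1, ATP6V1A, ATP6V1B2, ATP6V1C1, ATP6V1H, LAMP2, HEXA and PSAP. Among the genes not searched, ATP6V1B2 and LAMP2 rose and ATP6V0E1 fell in both comparisons. TCACGTGA was in 6 of these 34 promoters (17.6%), beside 1.04% of all 27305 promoters of that length and 1.74% of those of tested genes; as a palindrome it reads the same on both strands. The core CACGTG, which TCACGTGA contains, was in 9 of 34 (26.5%), beside 7.43% of all promoters and 9.72% of those of tested genes. One window for each of the 6 genes is shown on the gene's strand with TCACGTGA in capitals, to set genes that hold it beside their changes. The windows are at chr16:67481199-67481228 (ATP6V0D1, minus strand), chr9:114587699-114587728 (ATP6V1G1, plus), chr13:113297199-113297228 (LAMP1, plus), chr19:7522571-7522600 (MCOLN1, plus), chr20:45891298-45891327 (CTSA, plus) and chr17:80101493-80101522 (GAA, plus).
ATP6V0D1: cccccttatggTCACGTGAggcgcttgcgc
ATP6V1G1: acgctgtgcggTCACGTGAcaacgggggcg
LAMP1: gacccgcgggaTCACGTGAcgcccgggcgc
MCOLN1: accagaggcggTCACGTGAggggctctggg
CTSA: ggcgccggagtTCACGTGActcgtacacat
GAA: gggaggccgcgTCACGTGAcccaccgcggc
LAMP1, MCOLN1 and GAA hold the palindrome a second time. Of these 6 genes ATP6V1G1 rose in both comparisons and the other 5 did not pass, with median log2 changes of 0.07 against Scrambled and 0.09 against Control. Of the 28 other genes with a promoter, 7 rose and 2 fell against Scrambled, and 5 rose and 3 fell against Control. Over all tested genes with a promoter, 10.6% of the 218 with TCACGTGA rose against Scrambled and 10.3% of the 12293 without, and 5.96% and 8.22% rose against Control. A match does not show that a factor binds there.

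The rest of these pathways was described with 135 further tested genes, also listed with earlier results on these data known. Of these, 19 rose and 11 fell against Scrambled (median log2 change 0.06), and 15 rose and 11 fell against Control (median 0.03), beside the 16.9% and 14.7% of all tested genes given above. Among 12 further proton pump genes 1 rose and 2 fell against Scrambled, and 0 rose and 1 fell against Control. VMA21, an assembly factor of the V0 sector, averaged 97.3 ± 6.47 CPM in CA2 shRNA, 73.0 ± 8.74 CPM in Scrambled libraries and 83.6 ± 4.14 CPM in Control libraries (0.41, adjusted p = 0.00152 against Scrambled; 0.22, adjusted p = 0.0760 against Control). Against Control VMA21 passed without Scrambled 1 (0.0283) or Scrambled 2 (0.00908), with no filter (0.0203), the 1 CPM filter (0.0433) or only the compared groups (0.0213). DMXL2, a subunit of the complex that helps V1 and V0 to join, averaged 40.1 ± 2.23 CPM in CA2 shRNA, 56.7 ± 4.38 CPM in Scrambled libraries and 52.9 ± 5.76 CPM in Control libraries (-0.50, adjusted p = 0.000355; -0.40, adjusted p = 0.00269). ATP6V1E2, a second form of subunit E, was at -0.41 against Scrambled (adjusted p = 0.0458), a call lost without any one of Control 2, Scrambled 1, 2 or 3, or CA2 shRNA 1 or 3 (0.0585 to 0.226). It was also lost with DESeq2 (0.0682), DESeq2 size factors (0.0553), no filter (0.0621), the replicate block (0.0517) or only the compared groups (0.0599).

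Of 35 further hydrolases, 7 rose and 3 fell against Scrambled, and 6 rose and 2 fell against Control. The cysteine protease genes CTSC and CTSS rose: CTSC averaged 23.8 ± 0.348 CPM in CA2 shRNA, 15.2 ± 0.430 CPM in Scrambled libraries and 16.2 ± 1.2 CPM in Control libraries (0.65, adjusted p = 2.12e-05 against Scrambled), and CTSS 17.3 ± 2.05, 11.5 ± 0.452 and 12.2 ± 1.04 CPM (0.59, adjusted p = 0.000574). PPT1, which removes fatty acids from proteins, averaged 109 ± 2.40 CPM in CA2 shRNA, 81.4 ± 3.73 CPM in Scrambled libraries and 83.7 ± 6.46 CPM in Control libraries (0.43, adjusted p = 0.000134). ARSB, a sulfatase that acts on chondroitin and dermatan sulfate, fell, with 28.8 ± 0.639 CPM in CA2 shRNA, 47.7 ± 3.10 CPM in Scrambled libraries and 48.3 ± 4.29 CPM in Control libraries (-0.73, adjusted p = 2.91e-06). Each of these 4 genes passed in the same direction against Control. Of 22 further membrane and sorting genes, 6 rose and 1 fell against Scrambled, and 5 rose and 1 fell against Control. The gene that fell was HGSNAT, a lysosomal membrane enzyme that acetylates heparan sulfate, with 46.5 ± 1.15 CPM in CA2 shRNA, 79.9 ± 2.89 CPM in Scrambled libraries and 79.2 ± 2.93 CPM in Control libraries (-0.78, adjusted p = 6.78e-08). SLC36A1, a proton-coupled amino acid exporter, was at 0.38 (adjusted p = 0.00247), LAPTM4A, a small lysosomal membrane protein, at 0.36 (adjusted p = 0.000417), and GNPTAB, which makes the mannose 6-phosphate tag of hydrolases, at 0.33 (adjusted p = 0.00753), all against Scrambled, and all 3 also rose against Control.

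Of 20 genes of mTORC1 signalling at the lysosome, 2 rose and 0 fell against Scrambled, and 3 rose and 1 fell against Control. RRAGD, a Rag GTPase that brings mTORC1 to lysosomes, averaged 40.1 ± 2.34 CPM in CA2 shRNA, 29 ± 3.73 CPM in Scrambled libraries and 32.3 ± 2.58 CPM in Control libraries (0.47, adjusted p = 0.00146 against Scrambled; 0.32, adjusted p = 0.0231 against Control). The call against Control was lost without Control 1 (0.0904), Control 3 (0.0865) or CA2 shRNA 1 (0.0639). FNIP2, a partner of folliculin, averaged 17 ± 0.642 CPM in CA2 shRNA, 13 ± 0.492 CPM in Scrambled libraries and 13.2 ± 0.480 CPM in Control libraries (0.39, adjusted p = 0.00444).

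Of 25 further core autophagy genes, 1 rose and 4 fell against Scrambled, and 1 rose and 5 fell against Control. ATG14, which directs the lipid kinase complex of BECN1 to the forming autophagosome, had 12.1, 9.16 and 11.2 CPM in CA2 shRNA libraries, against 19.6, 21.7 and 22.5 CPM in Scrambled libraries and 20, 22.2 and 23.1 CPM in Control libraries. It was at -0.97 ± 0.10 against Scrambled (adjusted p = 3.28e-06) and -1.0 ± 0.10 against Control (adjusted p = 2.28e-06). ULK2, the relative of ULK1, averaged 116 ± 4.45 CPM in CA2 shRNA, 171 ± 5.24 CPM in Scrambled libraries and 168 ± 7.10 CPM in Control libraries (-0.56, adjusted p = 1.2e-06 against Scrambled). AMBRA1, a regulator of BECN1 and ULK1, was at -0.32 against Scrambled (adjusted p = 0.00125), and RB1CC1, the scaffold of the ULK kinases, at -0.32 (adjusted p = 0.0419). The RB1CC1 call against Scrambled was lost without any one of Control 2, Scrambled 2 or 3, or CA2 shRNA 1, 2 or 3 (0.0555 to 0.152). It was also lost with DESeq2 size factors (0.0502), library totals in place of TMM (0.0506) or only the compared groups (0.0783). RB1CC1 also fell against Control, a call lost without Control 2 (0.0588), Control 3 (0.0967), CA2 shRNA 1 (0.0666), CA2 shRNA 2 (0.106) or CA2 shRNA 3 (0.0505). Of 9 further receptors, TOLLIP was at 0.26 (adjusted p = 0.0299 against Scrambled; lost without Control 2, 0.0604, Scrambled 3, 0.192, CA2 shRNA 2, 0.193, or with only the compared groups, 0.0514) and none passed against Control. TOLLIP, at 0.22 against Control (adjusted p = 0.0738), passed there without Scrambled 1 (0.0476), Scrambled 2 (0.0272) or CA2 shRNA 3 (0.0238), with no filter (0.0317), the 1 CPM filter (0.0461), the replicate block (0.0393) or only the compared groups (0.0315). Of 12 genes for the fusion of autophagosomes with lysosomes, VPS18 was at 0.23 and VPS39 at -0.18 against Scrambled (adjusted p = 0.0354 and 0.0352). VPS18 did not pass without Control 2 (0.0682), Scrambled 3 (0.128) or CA2 shRNA 2 (0.238), nor VPS39 without CA2 shRNA 1 (0.212), CA2 shRNA 3 (0.199), Scrambled 3 (0.0720) or Scrambled 2 (0.123). The VPS39 call was also lost with DESeq2 (0.0770), DESeq2 size factors (0.0794), no filter (0.0842) or only the compared groups (0.0717). A heptamer was in the 3' UTR of 20 of the 135 genes, beside 20.4% of all searched genes. It was in 6 of the 11 that fell against Scrambled (DMXL2, IDS, HGSNAT, ULK2, ATG14 and AMBRA1) and in 2 of the 19 that rose. Over all searched genes that fell against Scrambled, 741 held a heptamer and 757 held neither. Of all those that rose, 151 held a heptamer and 1422 held neither.

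**Figure D5:**
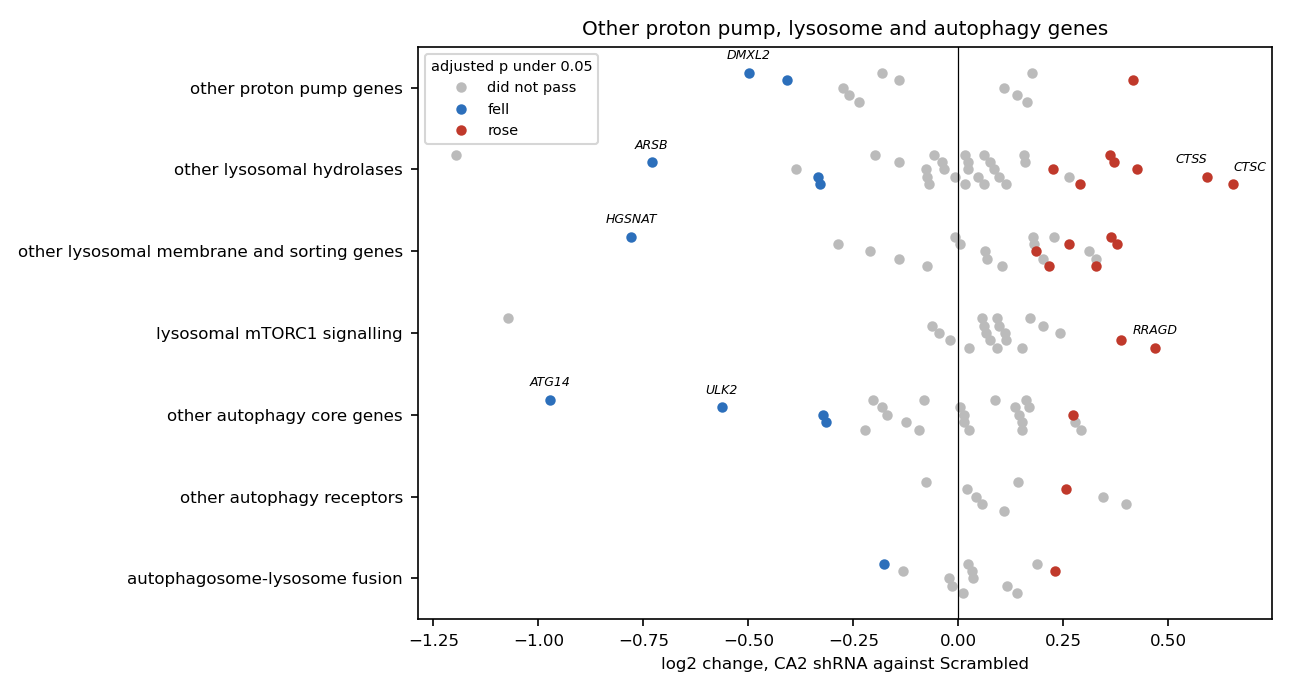
Log2 change of CA2 shRNA against Scrambled for the 135 further proton pump, lysosome and autophagy genes, 1 row per list, coloured by whether a gene rose, fell or did not pass. ATG14 at -0.97, HGSNAT at -0.78 and ARSB at -0.73 are the lowest that passed, and CTSC at 0.65 and CTSS at 0.59 the highest.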

How the data were processed

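The data are RNA sequencing libraries of C28/I2 cells, 3 each labelled CA2 shRNA, Scrambled and Control. The authors deposited 1 table per library with whole-number counts per Ensembl gene, CPM (counts scaled by the table's total) and RPKM (CPM per kilobase of exon), per the file headers. Per the submitters' processing notes, bcl2fastq, STAR 2.5.1a and featureCounts 1.4.6-p5 (Subread) were used on GRCh38. Not given in the sources used here are its annotation release, its strand setting and how reads that map more than once were treated. Symbols were matched for 60401 of 60671 gene IDs.

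From the deposited counts, genes were filtered with filterByExpr (19812 left), scaled by TMM (factors 0.977 to 1.01) and tested with edgeR 4.0.16 (R 4.3.3), a quasi-likelihood F test with robust fitting. All 9 libraries entered 1 model of the 3 groups, with 6 residual degrees of freedom. Benjamini-Hochberg adjustment ran over all tested genes, and the threshold was 0.05. The biological coefficient of variation was 7.94%. Printed CPM are TMM-scaled; RPKM are the deposited values. Exact permutation of 3 against 3 libraries has a smallest p of 0.10 and was not used. No libraries agreed within sampling noise (chi-square per gene at least 3.76, for Scrambled 2 and Control 3).

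The 42 genes, the further lists and the 3' UTR heptamers were chosen with earlier results of these data known, so counts are descriptions beside all tested genes. Genes past the threshold are given in every library; of each further list up to 4 with the largest changes against Scrambled and at least 2 CPM. Not tested for low counts were 5 of 140 listed genes. Alternatives were DESeq2 1.42.0, other scalings and filters, a replicate block, only the compared groups, and left-out libraries.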

Additional observations from a re-analysis of the deposited data

How the results depend on the processing

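Over 17 alternatives no change of the 42 genes reversed its sign among those called; of 25 calls over the comparisons 14 held in every alternative, and of 101 that did not pass 92 passed in none. ATP6V0E1, ATP6V1B2, TFEB, LAMP2 and MAP1LC3B held everywhere in both comparisons. Leaving out 1 library at a time, the number of the 42 genes rising against Scrambled ranged from 6 to 13 and falling from 2 to 4, and against Control from 4 to 10 and from 2 to 4. Over all genes, 864 (without Scrambled 3) to 2357 rose and 1129 (without CA2 shRNA 1) to 1876 fell against Scrambled, and 663 (without CA2 shRNA 2) to 2030 (without Scrambled 2) rose and 1063 (without CA2 shRNA 1) to 2027 fell against Control. Scrambled against Control gave 0 to 1 rising and 0 falling genes in the same way. With Scrambled 2 and Control 3 both left out, 2407 genes rose against Scrambled, and 2 of the 42 fell against Control. Scrambled against Control gave 1 rising gene with DESeq2, and 5 rising and 2 falling with no filter. The cause of these shifts was not tested. ATP6V0A2 against Scrambled was also lost with no filter (0.0566) and with only the compared groups (0.0514), and GABARAPL2 against Control with DESeq2 size factors (0.0516). NPC2 against Control passed with library totals (0.0452) and with a filter of at least 1 CPM in 3 libraries (0.0227), and under that filter ATP6AP1 (0.0417) and PSAP (0.0452) passed against Scrambled. With Scrambled 2 and Control 3 both left out, ATP6V0A2 (0.0807 against Scrambled, 0.0515 against Control), TFE3 against Scrambled (0.0660) and GABARAPL2 against Control (0.109) did not pass, while ATP6V1A (0.0160), ATP6V1C1 (0.00533), ATP6V1D (0.0227) and ATG5 (0.0460) passed against Scrambled, and TFE3 (0.0424) and NPC2 (0.0268) against Control. The replicate block ended the ATP6V1E2 call against Scrambled (0.0517) and gave one for TOLLIP against Control (0.0393), and changed no call of the 42 genes. Deviations from the group mean had correlations from -0.185 to 0.105 between same-numbered libraries. Control 3 and Scrambled 2, with unlike numbers, were at 0.301. The labels do not say whether the numbers pair libraries, and with 3 libraries per group these correlations cannot decide it. With the replicate block, 10 of the 42 rose and 3 fell against Scrambled, and 8 rose and 4 fell against Control, with 1638 and 1784, and 1299 and 1647, over all genes. CA2, GABARAP and ATP6V0C rest on few counts. For GABARAP and ATP6V0C, 48.2% and 76.3% of the exon bases are shared with genes on the other strand. Whether counts were lost there was not tested.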
